A study of Daphnia magna with 56 samples.

Results

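Among all transcript records counted in whole Daphnia magna, 117 were both highly abundant and less than 2-fold different between the ages of 4 and 8 days in unexposed animals, and their levels, their share of the RNA and their behaviour under gamma radiation are described here. The 117 were taken from 23570 RefSeq model transcript records, of which 12228 had a count in at least 1 library. A record was included when its mean over all 56 libraries was above 1000 CPM (the count scaled to a common library total) and when its mean log2(CPM + 0.5) in the 4 unexposed libraries of day 8 differed by less than 1 from that in the 4 unexposed libraries of day 4. Of 135 records above 1000 CPM, 18 were left out by the second condition, 11 of them higher and 7 lower on day 8. The 117 were thus selected on mean CPM and on the age difference of the controls, and those values are given below as descriptions, with no test.

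The animals were female, wild-type juveniles of the water flea Daphnia magna, a small freshwater crustacean that is common in toxicity tests, and RNA was taken from the whole organism. They were exposed from the neonatal stage, in beakers of M7 culture medium, to gamma radiation at 0, 0.4, 1, 4, 10, 40 or 100 mGy/h, and were sampled after 4 or 8 days. Each combination of dose rate and day had 4 replicate libraries, and the control was the 0 mGy/h group of the same day. Age and length of exposure rise together in the exposed groups and cannot be told apart there. The labels do not say whether replicates came from separate cultures or how many animals went into a library, so p-values measure the spread between these libraries, which may be technical.

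In a whole animal, messenger RNA is very unevenly distributed, and a small number of transcripts, often those for ribosomal proteins, digestive enzymes, muscle proteins or cuticle, fill a large part of a library. Because a library holds a limited number of reads, a rise in one very abundant transcript lowers the CPM of the others even where their own amounts are unchanged. Daphnia grow through repeated moults and begin to form eggs as they mature, so the make-up of the animal shifts with age, and in bulk samples fewer cells of a type and less RNA per cell cannot be told apart. Ionising radiation breaks DNA and produces reactive oxygen species.

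The 117 records could not be assigned to functions. When the version number of the record was ignored, 91 of them matched a gene symbol in the RefSeq annotation of assembly ASM2063170v1.1, and 1 matched with the version. The 91 symbols were all different, all were LOC numbers without a product name, and no other counted record carried any of them. The remaining 26 are named by their record only, and no role is given to any member.

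Abundance was concentrated in a few members. The mean level of the 117 had a median of 1486 CPM, 83 lay below 2000 CPM, and 10 exceeded 5000 CPM. The 8 most abundant took 28.3% of the counts of all 117. In descending order of mean level they were XM_032929158.1 at 14982 CPM, XM_032935357.1 at 12064 CPM, XM_032934435.1 (LOC116927135) at 11362 CPM, XM_032925012.1 (LOC116919128) at 10352 CPM, XM_032924790.1 at 7757 CPM, XM_032921002.1 (LOC116915864) at 7419 CPM, XM_032927700.1 at 6513 CPM and XM_032933478.1 (LOC116926537) at 6125 CPM. These values are per record and not per length, so they rank counts and not molecules. All 117 were detected in all 56 libraries. The smallest count of any member in a library was 3081 on day 4 and 28 on day 8. The record with the highest mean of all, XM_032923507.1 at 74273 CPM, was not a member, since it was higher on day 8 by 3.13 on the log2 scale.

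The limits of the rule cut through a continuous range. Just above the abundance limit lay XM_032929307.1 at 1006.5 CPM and XM_032943008.1 at 1012 CPM, and just below it XM_032931982.1 at 997 CPM and XM_032930430.1 at 983 CPM. The age difference was 0.99 for XM_032942371.1 and 0.92 for XM_032929158.1, against 1.17 and 1.23 for the nearest records left out, XM_032931963.1 and XM_032922071.1. On the falling side it was -0.99 for XM_032934421.1 and -0.91 for XM_032942379.1, against -1.05 for XM_032939006.1 and -1.07 for XM_032942913.1, which were left out.

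Depth was even, with totals of 13285376 to 14243541 counts on day 4 and 14032254 to 14986499 on day 8. Several libraries stood apart from their group. On day 4 the first principal component of all tested records held 50.9% of the variance. All 4 libraries at 0.4 mGy/h scored from 29.0 to 56.4 on it and all 4 controls from -39.2 to -25.7. The 1 mGy/h group split, with replicates at -40.3 and -40.6 and others at 36.5 and 39.7. At 4 mGy/h replicate 3 scored -27.6 and the others from 31.3 to 39.4. At 40 mGy/h replicate 4 scored 37.8 and the others from -35.6 to -21.1. Totals on day 4 also fell into 20 libraries up to 13625826 counts and 8 from 13955640 counts upward, and all 4 libraries at 10 mGy/h were among the larger 8. On day 8, replicate 3 at 0.4 mGy/h and replicate 2 at 40 mGy/h had the lowest levels of many members, as described below.

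Together the 117 records took between 27.4% and 30.0% of all counts on day 4, with a median of 28.7%. On day 8 they took between 20.1% and 30.9%, with a median of 25.6%. The controls held 29.2% ± 0.285 (SD, n = 4) on day 4 and 27.7% ± 1.11 (SD, n = 4) on day 8. The range between libraries was therefore wider on day 8, and it was widest within the 40 mGy/h group. The share was used neither to choose records nor in a test, because the abundance condition fixes part of it.

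On day 4 the share was 29.6, 28.9, 29.1 and 29.1% in the 4 controls. It was 28.9, 28.2, 28.3 and 28.3% at 4 mGy/h, 28.6, 28.9, 28.7 and 28.5% at 10 mGy/h and 28.8, 28.5, 28.2 and 28.2% at 40 mGy/h. In each of these 3 exposed groups every library lay below every control, by less than 1 percentage point between means. The margin between single libraries was narrow. The highest library held 28.88% at 4 and at 10 mGy/h and 28.84% at 40 mGy/h, against 28.94% in the lowest control. At 0.4 mGy/h the libraries held 29.2, 28.3, 27.4 and 28.6%, at 1 mGy/h 29.3, 30.0, 28.6 and 28.9% and at 100 mGy/h 28.5, 29, 28.7 and 28.8%, and these groups overlapped the controls. The share did not fall in order of dose rate.

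On day 8 the controls held 27.4, 26.3, 28.1 and 28.9%. The 0.4 mGy/h libraries held 25.7, 25.7, 20.1 and 23.5%, all below the lowest control also when replicate 3 is set aside. At 100 mGy/h the values were 22.8, 22.2, 28.5 and 24%, and at 40 mGy/h they were 30.9, 20.6, 27.9 and 30.9%, so that this group contained both the highest and the second lowest share of the day. The shares at 1, 4 and 10 mGy/h overlapped those of the controls.

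**Figure D1:**
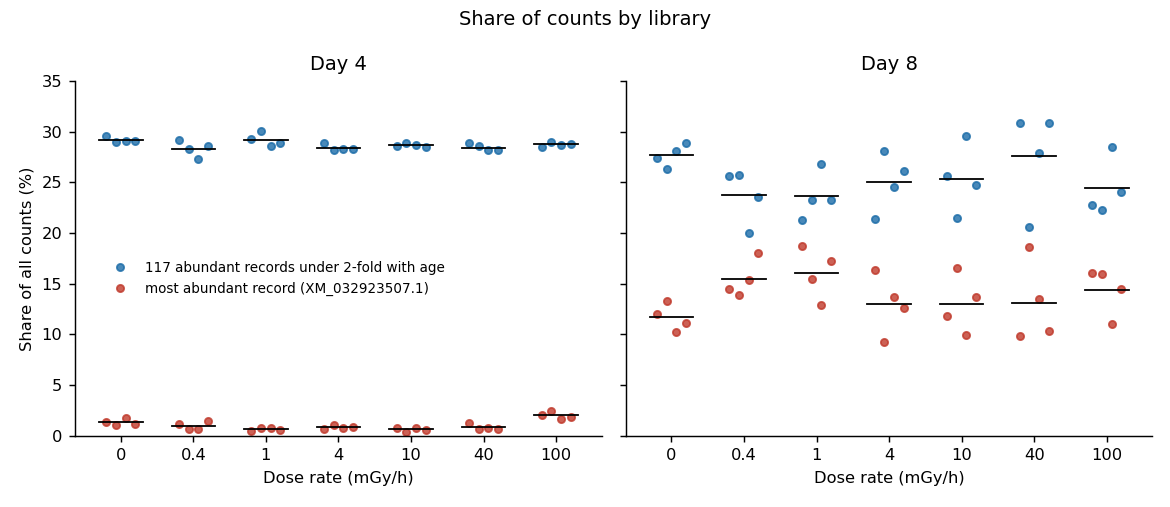
Share of all counts (%, vertical axis) taken by the 117 abundant records with an age difference under 2-fold (blue) and by the single most abundant record (red), by dose rate in mGy/h for day 4 (left) and day 8 (right). Each point is a library and each line the mean of 4. The blue points lie between 27.4% and 30.0% on day 4 and between 20.1% and 30.9% on day 8.

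The 18 abundant records that the rule left out took 2.88% to 5.19% of counts on day 4 and 13.6% to 25.5% on day 8. The single record XM_032923507.1 took 0.409% to 2.48% on day 4 and 9.22% to 18.7% on day 8. In the 5 day 8 libraries with the lowest member share, which were replicate 3 at 0.4 mGy/h, replicate 2 at 40 mGy/h, replicate 1 at 1 mGy/h, replicate 1 at 4 mGy/h and replicate 2 at 10 mGy/h, it took from 15.4% to 18.7%. Counted against the library without the 18 records, the members held 30.4% ± 0.347 in the day 4 controls and 33.3% ± 0.952 in the day 8 controls (SD, n = 4 each). On that denominator the day 8 share of the controls was the higher of the pair, whereas on all counts it was the lower. The 0.4 mGy/h group of day 8 stayed below the controls on that denominator as well, at 30.2% ± 3.24 (SD, n = 4). Its replicate 3 held 25.4% and the other libraries 32.3, 31.8 and 31.2%, close to the lowest control at 32.5%.

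The age difference that chose the members depended on the scale. On library totals 92 of the 117 were lower and 25 higher on day 8 in the controls, with a median of -0.40 on the log2 scale, beside -0.31 for all 9561 records tested. With TMM scaling, which sets libraries to a common level by the bulk of the records, 66 were lower and 51 higher, and the median was -0.08. On the TMM scale 6 of the 117 differed by 2-fold or more between the controls of both days, by up to 1.32, so the description as under 2-fold holds on totals and for 111 members on the TMM scale.

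The same measure was then taken in the 48 exposed libraries, which the age condition had not used. On totals 104 of the 117 differed by less than 2-fold there, beside 84.4% of all 9561 records, so most records did so. For 92 members the difference on totals was under 2-fold at each of the 6 dose rates, and this was not counted over all records. An edgeR test of day in the exposed libraries had dose rate as a term and TMM scaling, so its values are not on totals. On totals 24 of the 117 were above 0 and 93 below, and on TMM-scaled CPM 45 and 72. In the test 99 of the 117 members differed (41 higher, 58 lower on day 8). Of all 9152 records tested 82.1% differed, so the share of members called (84.6%) was close to the background. Fitted changes of members ran from -1.10 for XM_032929871.1 (LOC116923417) to 1.41 for XM_032929307.1 (LOC116922852). Of the members 7 exceeded 2-fold in this fit, beside 13.9% of all records. As a mean of log2 CPM on totals the difference of XM_032929871.1 was -1.89. For XM_032934421.1 (LOC116927405) the exposed libraries gave a log2 difference of -0.69 (SE 0.02), the lowest adjusted p of any member (edgeR adjusted p = 1.22e-30).

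**Figure D2:**
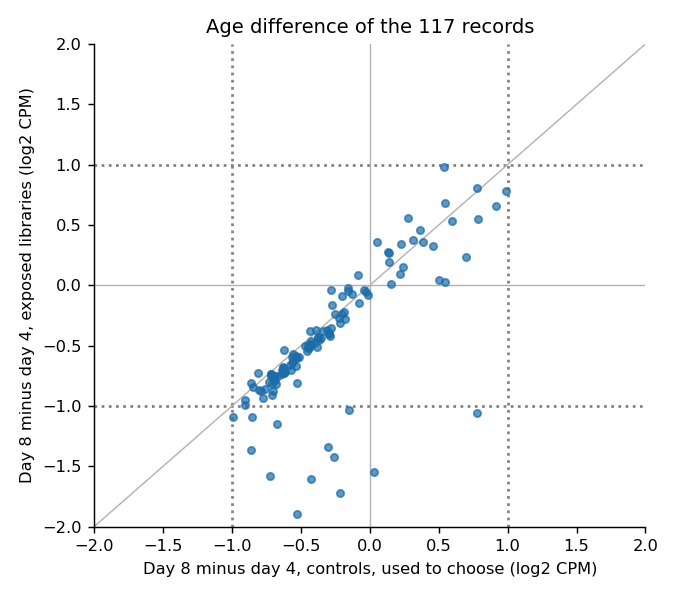
Difference between day 8 and day 4 (log2 CPM on library totals) of each of the 117 records in the controls (horizontal axis, used to choose them) and averaged over the 48 exposed libraries (vertical axis). Each point is a record, the diagonal marks equal values and dotted lines mark 2-fold; 104 of the 117 points lie between the horizontal dotted lines.

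Replicates agreed closely for most members on day 4 and less closely on day 8. The pooled SD of log2 CPM within groups had a median of 0.0530 for the members on day 4 and 0.135 on day 8, beside 0.119 and 0.202 for all 9561 records tested. For 115 of the 117 (98.3%) the spread was larger on day 8, beside 92% of all records. In what follows levels are CPM on TMM-scaled library sizes.

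The steadiest member was XM_032931539.1, with an SD of 0.0412 over the 14 groups. Its levels were 1138, 1161, 1189.8 and 1181 CPM in the day 4 controls and 941, 974, 948 and 917 CPM in the day 8 controls, with 958, 988, 1007 and 955 CPM at 100 mGy/h on day 8. The exposed and control libraries of day 8 overlapped, and the fitted change at 100 mGy/h was 0.05 (SE 0.04, edgeR adjusted p = 0.507). Next in order came XM_032936437.1 (LOC116929259) with an SD of 0.0460 and XM_032933550.1 with 0.0471. The level of XM_032936437.1 stayed between 1165 and 1376 CPM in all 56 libraries.

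At the other end, 16 members had a within-group SD above 0.5 on day 8, a limit chosen after the values were seen. They made up 13.7% of the members, while 15.1% of all records were above the same limit, so a wide spread on day 8 was no more frequent among members than in the whole table. Only XM_032929307.1 of these also exceeded it on day 4. The 16, chosen for this spread, took 4.01% to 5.99% of counts on day 4 and 2.07% to 10.2% on day 8, whereas the other 101 took 23.1% to 24.1% on day 4 and 18.0% to 21.4% on day 8.

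The widest spread belonged to XM_032922485.1 (LOC116917111). On day 8 its levels were 2069.6, 1238, 1887 and 2405 CPM in the controls. The 40 mGy/h libraries had 4401, 7.55, 4386 and 3820.1 CPM, the 0.4 mGy/h libraries 1678, 1230.4, 12.1 and 745 CPM and the 1 mGy/h libraries 35.8, 79.4, 1604 and 1476 CPM. A single replicate at 40 mGy/h was near zero while the other 3 were above every control, and at 1 mGy/h 2 of the 4 libraries were far below the rest. On day 4 the same record lay between 1129.8 and 2576 CPM in all 28 libraries. Its within-group SD on day 8 was 2.62, and 1.64 without replicate 3 at 0.4 mGy/h and replicate 2 at 40 mGy/h.

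The gene annotated next to it behaved alike. XM_032922486.1 (LOC116917113) had 2627, 2022, 2529 and 3265 CPM in the day 8 controls, where the 0.4 mGy/h libraries had 2497, 2197, 10.3 and 1237 CPM and those of 40 mGy/h 5306, 92.2, 4920.4 and 4189 CPM. The same 2 libraries, replicate 3 at 0.4 mGy/h and replicate 2 at 40 mGy/h, were lowest for both records. As neighbours they may share reads if their sequences are similar, which was not tested. Neighbouring members did not always move alike, since LOC116916748 (XM_032922088.1) had an age difference of -0.81 and its neighbour LOC116916749 (XM_032922089.1) one of 0.78.

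Other members were at very low levels in the same libraries. XM_032921730.1 had 2240.2, 1886, 1999 and 2376 CPM in the day 8 controls, where the 0.4 mGy/h libraries had 2000.3, 1471, 2.24 and 949 CPM and those of 40 mGy/h 3030.5, 7.02, 2465 and 3436 CPM. XM_032920505.1 had 1838, 1503, 2115 and 2384 CPM in the day 8 controls, where the 0.4 mGy/h libraries had 1836, 1334, 3.05 and 761 CPM and those of 40 mGy/h 2808, 18.1, 2264 and 3296 CPM. In both records replicate 3 at 0.4 mGy/h and replicate 2 at 40 mGy/h were far below the rest of their groups, and the other libraries at 40 mGy/h lay among or above the controls. XM_032937366.1 (LOC116930021) ranged from 2.57 to 2285 CPM over the 28 libraries and XM_032929579.1 from 16.7 to 2717 CPM.

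Another set was lowest in replicate 4 at 100 mGy/h and second lowest in replicate 3 at 0.4 mGy/h. XM_032929871.1 (LOC116923417) had 1404, 1469, 943 and 1385 CPM in the day 8 controls and 224, 348, 532 and 24.9 CPM at 100 mGy/h. XM_032934872.1 (LOC116927831) had 2240.2, 2160.3, 1567 and 2120.3 CPM in the controls and 616, 700.5, 1207 and 69.5 CPM at 100 mGy/h, and XM_032936324.1 ranged from 70.5 to 3088 CPM. In the first and second of these all 4 exposed libraries lay below all 4 controls. XM_032935144.1 was instead highest, at 4700.3 CPM, in replicate 3 at 0.4 mGy/h, and lowest, at 1386 CPM, in replicate 4 at 40 mGy/h.

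Counted by library, at least 1 of the 16 records was under 0.25 times its day 8 control mean in 9 of 24 exposed libraries and in 0 of 4 controls. At least 5 were that low in 7 exposed libraries, which belonged to all 6 dose rates. The 16 were chosen for their spread on day 8, and the controls are measured against their own mean. These counts therefore describe libraries and do not compare exposed with control libraries, and no such count over all records is given. Replicate 3 at 0.4 mGy/h was the lowest library for 9 of the 16 and replicate 4 at 100 mGy/h for 3. In the 7 libraries the most abundant record XM_032923507.1 took 14.4% to 18.7% of counts, against 10.3% to 13.3% in the controls, and the part of this shift in the low levels was not tested. Without replicate 3 at 0.4 mGy/h and replicate 2 at 40 mGy/h, 13 members still had an SD above 0.5.

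**Figure D3:**
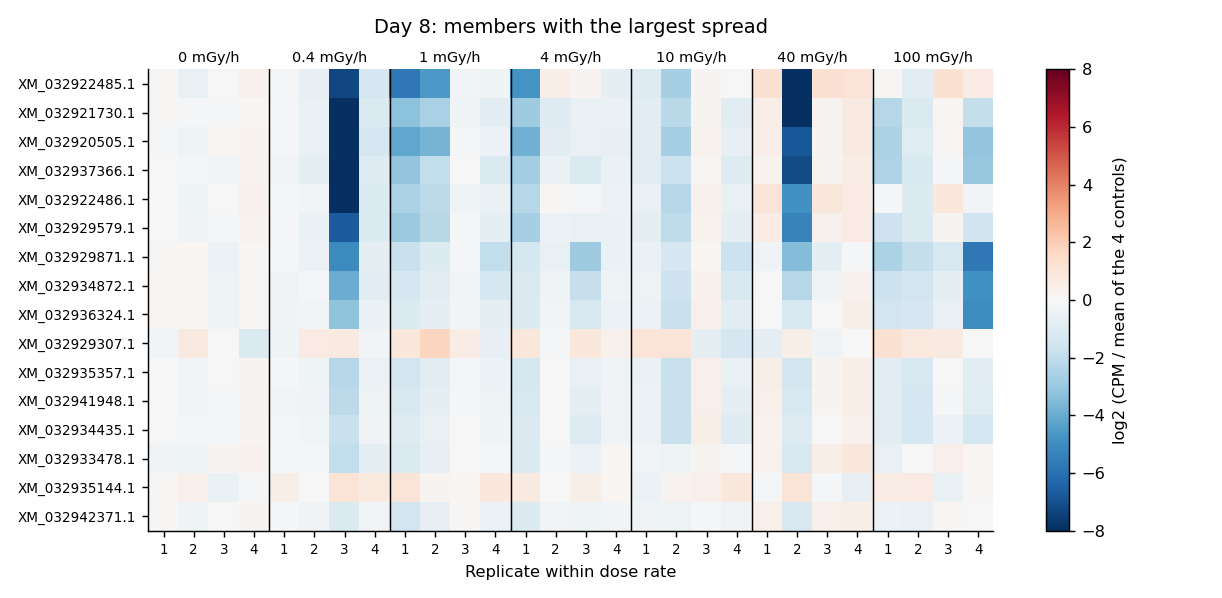
Level of the 16 members with the largest within-group spread on day 8 in each of the 28 day 8 libraries, as log2 of CPM over the mean of the 4 controls (colour; blue lower, red higher). Columns are replicates within dose rate and rows are records. The darkest columns are replicate 3 at 0.4 mGy/h and replicate 2 at 40 mGy/h. No control column is dark, but the controls are drawn against their own mean. Values beyond 8 are drawn at 8.

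To ask at which dose rate member levels departed from the control, every exposed group was set against the unexposed group of its day in an edgeR quasi-likelihood model of all records, with p-values adjusted by the Benjamini-Hochberg method over all of them and a call made under 0.05. On day 4 the members called numbered 1 at 0.4 mGy/h (lower; 0.16% of all 9369 records were called), 3 at 1 mGy/h (all higher; 0.672% of all), 0 at 4 mGy/h (0.0854% of all; 17 members had an unadjusted p under 0.05, and DESeq2 gave 0), 1 at 10 mGy/h (lower; 0.406% of all), 1 at 40 mGy/h (lower; 0.288% of all) and 2 at 100 mGy/h (both higher; 0.758% of all). The 17 members with an unadjusted p under 0.05 at 4 mGy/h were 14.5% of the members, beside 11.3% of all records. In a test of all 7 dose rates together 15 members were called, 12.8% of the 117, beside 3.52% of all records. On a trend over the rank of the dose rate 1 member was called, beside 0.566% of all. No member had a fitted change past 2-fold at any dose rate on day 4, beside 2.13% to 4.75% of all records. The median size of the log2 change at 100 mGy/h was 0.04 for members and 0.07 for all records, while the members also had the smaller spread.

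At 1 mGy/h a pair of members rose on day 4 above every other library of that day. XM_032935550.1 (LOC116928462) had 1706, 1624, 1754 and 1753 CPM in the controls and 1889.8, 1942, 1938 and 1908 CPM at 1 mGy/h (log2 fold change 0.16, SE 0.03, edgeR adjusted p = 0.00194). XM_032936352.1 (LOC116929200) had 1351, 1312, 1391 and 1332 CPM in the controls and 1468, 1543, 1504 and 1496 CPM at 1 mGy/h (log2 fold change 0.16, SE 0.03, edgeR adjusted p = 0.00238). In both, all 4 libraries at 1 mGy/h lay above all 24 other libraries of day 4, those at 0.4 and 4 mGy/h included.

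On day 8 the 4 libraries at 1 mGy/h were again the highest of all 28 for both records. XM_032935550.1 had 1914, 2174, 2012 and 2035 CPM in the controls and 2529, 2444, 2365 and 2592 CPM at 1 mGy/h (log2 fold change 0.29, SE 0.08, edgeR adjusted p = 0.235). XM_032936352.1 had 1410.1, 1568, 1475 and 1476 CPM in the controls and 1893, 1905, 1766 and 1846 CPM at 1 mGy/h (log2 fold change 0.32, SE 0.07, edgeR adjusted p = 0.0642). Neither passed the threshold on day 8, although the groups did not overlap. That 1 mGy/h stood above all other groups was noticed after the values were seen. The third record called at 1 mGy/h on day 4, XM_032942322.1 (LOC116934894), had 2927, 2886, 2923 and 2902 CPM in the controls and 3034, 3131, 3152 and 3204 CPM exposed (log2 fold change 0.10, SE 0.02, edgeR adjusted p = 0.0293). These 3 calls were lost when only the control and 1 mGy/h groups were fitted, with adjusted p up to 0.134 for XM_032935550.1, and XM_032942322.1 was called in 6 of 18 alternative settings.

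At 100 mGy/h on day 4 the largest called change was a rise of XM_032939987.1 (LOC116932186), from 1106, 1007, 1063 and 1075 CPM to 1236, 1256, 1187 and 1218 CPM (log2 fold change 0.20, SE 0.05, edgeR adjusted p = 0.0318). XM_032943008.1 rose from 998, 924, 945 and 966 CPM to 1128, 1083, 1094 and 1087 CPM (log2 fold change 0.19, SE 0.03, edgeR adjusted p = 0.00424), and it was also the one member called on the trend (edgeR adjusted p = 0.0326). In both records all exposed libraries were above all controls. XM_032943008.1 was not highest throughout the series of dose rates, since its mean was 876 ± 25.3 CPM at 0.4 mGy/h against 958 ± 31.4 CPM in the controls (SD, n = 4 each). Within the 20 libraries of the smaller total class the changes were 0.22 (adjusted p = 0.193) for XM_032939987.1 and 0.19 (adjusted p = 0.103) for XM_032943008.1, with 3 libraries in each group. Leaving out 1 of the 8 libraries compared ended the call of XM_032939987.1 in 7 of 8 cases and that of XM_032943008.1 in 0 of 8, though its trend call was lost in 4 of 8.

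Lower levels were called for XM_032942583.1 (LOC116935234) at 0.4 and 10 mGy/h and for XM_032937402.1 (LOC116930051) at 40 mGy/h. XM_032942583.1 had 1205, 1177, 1195 and 1173 CPM in the controls. The 0.4 mGy/h group had 1127, 1111, 1056 and 1084 CPM (log2 fold change -0.11, SE 0.02, edgeR adjusted p = 0.0481), and the 10 mGy/h group had 1085, 1099, 1119 and 1084 CPM (log2 fold change -0.12, SE 0.02, edgeR adjusted p = 0.0124). Every exposed library of day 4 lay below every control for this record, at all 6 dose rates. XM_032937402.1 had 1771, 1661, 1711 and 1709 CPM in the controls and 1596, 1539.5, 1558 and 1519 CPM at 40 mGy/h (log2 fold change -0.13, SE 0.03, edgeR adjusted p = 0.0473). Within the smaller total class neither record was called, with adjusted p of 0.152 for XM_032942583.1 at 0.4 mGy/h and 0.58 for XM_032937402.1. Leaving out 1 of the 8 libraries compared ended the call of XM_032942583.1 in 7 of 8 cases at 0.4 mGy/h and in 5 of 8 at 10 mGy/h, and that of XM_032937402.1 in 6 of 8. The call at 0.4 mGy/h was also lost on totals alone, without a filter and with surrogate variables, and that of XM_032937402.1 with a replicate block and with surrogate variables.

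In the test of all dose rates of day 4 the lowest adjusted p belonged to XM_032943008.1 (5.94e-05), followed by XM_032934668.1 (0.00138), XM_032939987.1 (0.0033), XM_032927707.1 (LOC116921420; 0.0036), XM_032935550.1 (0.00378) and XM_032936352.1 (0.00572), all from edgeR. The profiles differed. XM_032927707.1 had 778 ± 52.9 CPM in the controls and 829 ± 67.9 CPM at the highest dose rate, with 675 ± 13.8 CPM at 1 mGy/h and 675 ± 21.9 CPM in the 10 mGy/h group between them (SD, n = 4 each), and so was lowest in the middle of the range. XM_032934668.1 had 1334 ± 67.3 CPM in the controls, 1215 ± 65.5 CPM in the 1 mGy/h group and 1458 ± 57.7 CPM in the 100 mGy/h group (each ± SD over 4 libraries), again lower at 1 mGy/h and higher at 100 mGy/h. In the smaller total class 6 of the 117 were called, beside 1.25% of all records, and with the class as a term in the fit to all 28 libraries 10 were called, beside 2.44%.

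Separation without a threshold was most frequent at 10 mGy/h. There 31 of the 117 members (26.5%) had no overlap between the 4 exposed and 4 control libraries, 14 higher and 17 lower, beside 7.51% of all records. At 4 mGy/h it was 20 members (17.1%, 17 of them lower) beside 6.72% of all records (368 of 630 lower). At 1 mGy/h it was 17 (14.5%) beside 8.54% and at 0.4 mGy/h 13 (11.1%) beside 8.96%. At 100 mGy/h it was 11 (9.4%) beside 5.06% and at 40 mGy/h 10 (8.55%) beside 5.97%. All 4 libraries at 10 mGy/h were in the larger total class, where the controls had 1 library, the 40 mGy/h group 2 and the 100 mGy/h group 1. With the class as a term in the edgeR fit, 0 members were called at 10 mGy/h, beside 0.0213% of all records, and XM_032942583.1 had an adjusted p of 0.136 there. The part of the class in the separation at 10 mGy/h was not tested.

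On day 8 no member was called at 0.4 mGy/h (0.0214% of all 9367 records called by edgeR; 3 members with an unadjusted p under 0.05, 0 by DESeq2), at 1 mGy/h (0.256%; 13 unadjusted, 2 by DESeq2), at 4 mGy/h (0%; 1 unadjusted, 0 by DESeq2), at 10 mGy/h (0.0107%; 0 unadjusted, 0 by DESeq2) or at 40 mGy/h (0.032%; 4 unadjusted, 0 by DESeq2). Unadjusted, 2.56% of members were under 0.05 at 0.4 mGy/h, beside 4.81% of all records, and 11.1% at 1 mGy/h, beside 9.49%. At 4 mGy/h it was 0.855% beside 2.94%, at 10 mGy/h 0% beside 2.68% and at 40 mGy/h 3.42% beside 4.94%. At 100 mGy/h 2 members were called, both lower, beside 2.73% of all. DESeq2 called 2 members at 1 mGy/h and 7 in the test of all dose rates, and its counts over all records there are not given here. In edgeR the test of all dose rates called 0 members (1.44% of all). Unadjusted, 11 members (9.4%) were under 0.05 in it, beside 13.8% of all records. The trend called 4 (6.5% of all), 1 rising and 3 falling.

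XM_032924636.1 (LOC116918848) was called both at 100 mGy/h and on the trend. Its day 8 levels were 1056, 1062, 1039 and 1038 CPM in the controls. They were 956, 938, 939 and 919 CPM in the 40 mGy/h group and 832, 799, 855 and 819.9 CPM in the 100 mGy/h group. These 3 groups did not overlap and lay in order of dose rate. The groups between them all overlapped the controls, at 1068, 1103, 939 and 1009 CPM in the 0.4 mGy/h group, 1069, 947, 1005 and 1046 CPM in that of 1 mGy/h, 969, 1045, 861 and 971 CPM in the 4 mGy/h libraries and 955, 849.6, 1144 and 959 CPM in those of 10 mGy/h. The change at 100 mGy/h passed the test (log2 fold change -0.34, SE 0.08, edgeR adjusted p = 0.0252), as did the trend (edgeR adjusted p = 0.00894). XM_032939931.1 (LOC116932153) had 1799, 1881, 1536 and 1628 CPM in the controls and 1369, 1432, 1288 and 1293 CPM at 100 mGy/h, again without overlap (log2 fold change -0.34, SE 0.09, edgeR adjusted p = 0.0417; trend adjusted p = 0.0151). When each of the 8 libraries compared was left out in turn, the call at 100 mGy/h was lost in 6 of 8 cases for XM_032924636.1 and in 7 of 8 for XM_032939931.1, while both trend calls were kept in all 8. With surrogate variables the adjusted p at 100 mGy/h was 0.138 and 0.255.

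The other trends of day 8 were those of XM_032934668.1, falling (edgeR adjusted p = 0.0356), and of XM_032942322.1, rising (edgeR adjusted p = 0.0419). XM_032942322.1 had 2220.1, 2406, 2227 and 2122 CPM in the controls and 2606, 2686, 2429 and 2425 CPM at 100 mGy/h, where all exposed libraries were above all controls (log2 fold change 0.18, SE 0.05, edgeR adjusted p = 0.0616). Without TMM scaling its trend had an adjusted p of 0.146, and both of these trend calls were lost in 6 of 8 cases when 1 control or 100 mGy/h library was left out.

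The largest fitted changes of day 8 did not pass at any dose rate. Members more than 2-fold lower numbered 7 at 1 mGy/h, beside 3.68% of all records past 2-fold in either direction, 4 at 4 mGy/h (1.86% of all), 2 at 0.4 mGy/h (3.26% of all) and 0 at 10 and 40 mGy/h (1.56% and 1.25% of all). No member was more than 2-fold higher, and the highest fitted change was 0.86 for XM_032929307.1 at 1 mGy/h. At 100 mGy/h, where 4.64% of all records were past 2-fold, 5 members were more than 2-fold lower, all among the 16 with large spread: XM_032929871.1 at -2.20 (SE 0.84, edgeR adjusted p = 0.138), XM_032934872.1 at -1.64 (SE 0.70, adjusted p = 0.183), XM_032936324.1 at -1.49 (SE 0.62, adjusted p = 0.174), XM_032937366.1 at -1.29 (SE 1.08) and XM_032920505.1 at -1.11 (SE 1.20). The highest value at 100 mGy/h was that of XM_032929307.1 at 0.73 (SE 0.50, adjusted p = 0.421). Groups without overlap were found at 100 mGy/h for 14 members (12%) beside 15.2% of all records, at 0.4 mGy/h for 13 (11.1%) beside 4.81%, and at 1 mGy/h for 10 (8.55%) beside 6.86%. At 4 mGy/h they were found for 6 members (5.13%) beside 3.89%, at 40 mGy/h for 3 (2.56%) beside 3.38%, and at 10 mGy/h for 1 (0.855%) beside 1.64%. Of the 13 at 0.4 mGy/h 12 were lower, beside 256 of 451 among all records.

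Among the 8 most abundant members no record was called at 100 mGy/h on either day. XM_032929158.1 had 28641, 20534, 24277 and 28075 CPM in the day 8 controls and 16538, 15712, 27529 and 23374 CPM at 100 mGy/h (log2 fold change -0.28, SE 0.32, edgeR adjusted p = 0.664). Those groups overlapped. XM_032925012.1, XM_032924790.1 and XM_032921002.1 had fitted changes between -0.04 and 0.03 on day 4 and between -0.04 and 0.09 on day 8. XM_032929158.1 and XM_032933478.1 were called in the day 4 test of all dose rates (edgeR adjusted p = 0.0221 and 0.0426), but not in the smaller total class (0.227 and 0.255). The call of XM_032929158.1 was kept in 14 of 17 alternative settings and that of XM_032933478.1 in 6 of 17. Leaving out 1 library ended the call in 1 of 8 cases for XM_032929158.1 and in 7 of 8 for XM_032933478.1.

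The effect of 100 mGy/h was then compared between the days, in 1 fit to the 16 libraries of the 0 and 100 mGy/h groups with an interaction of dose rate and day. The difference passed for 6 members (5.13% of the 117), beside 4.39% of all 9329 records, so the share of members called was close to the background. In all 6 the effect was lower on day 8. Of all 410 records called, 193 had a higher effect on day 8. XM_032939987.1 showed the clearest one. Its day 8 levels were 1851, 1848, 1776 and 1835 CPM in the controls and 1444, 1632, 1404 and 1263 CPM at 100 mGy/h, all lower, whereas on day 4 all 4 exposed libraries had been higher. The difference between the effects was -0.55 (SE 0.09, edgeR adjusted p = 0.00883), and the day 8 change alone was -0.34 (adjusted p = 0.0667).

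XM_032939931.1, XM_032934668.1 and XM_032939958.1 had the same form. For XM_032934668.1 the mean was 1334 ± 67.3 CPM in the controls and 1458 ± 57.7 CPM exposed on day 4, a change that did not pass on its own (adjusted p = 0.148), and on day 8 it was 1986 ± 219 and 1627 ± 97 CPM (SD, n = 4 each; difference -0.41, SE 0.10, edgeR adjusted p = 0.0394). XM_032939931.1 gave -0.44 (SE 0.09, adjusted p = 0.0184) and XM_032939958.1 gave -0.35 (SE 0.09, adjusted p = 0.0406). In all of these the level was higher on day 8 than on day 4 in the controls, and the distance between the days was smaller at 100 mGy/h. XM_032924636.1 (-0.33, SE 0.06, adjusted p = 0.0139) differed in form, since it was lower on day 8 in the controls and the distance grew.

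The sixth was XM_032934435.1 (LOC116927135), the third most abundant member. On day 4 it had 10188, 9061, 9563 and 9155 CPM in the controls and 8889.6, 8891, 9199 and 8978 CPM at 100 mGy/h, with overlapping groups. On day 8 it had 19073, 17511, 18046 and 22885 CPM in the controls and 10288, 7367, 13911 and 7367 CPM at 100 mGy/h, with all exposed libraries lower. The difference was -0.91 (SE 0.24, edgeR adjusted p = 0.0451). It was called in 5 of 23 alternative settings and lost in 15 of 16 cases when 1 library was left out, and XM_032934435.1 was at 5529 CPM in replicate 3 at 0.4 mGy/h.

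**Figure D4:**
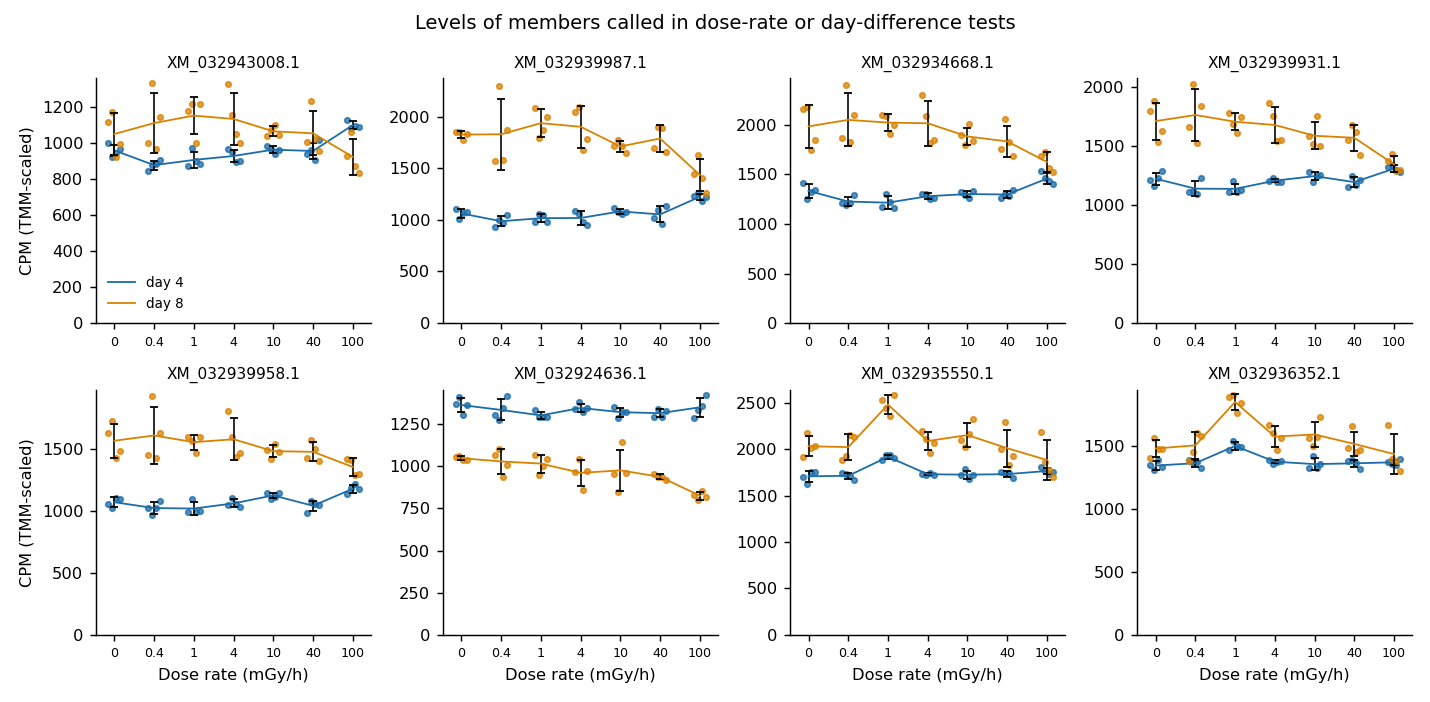
Level of 8 members called on day 4, on day 8 or in the comparison between days, in CPM on TMM-scaled library sizes, by dose rate in mGy/h on day 4 (blue) and day 8 (orange). Points are libraries, lines join the means of 4 and bars are 1 SD; XM_032939987.1 and XM_032934668.1 come closer together between days at 100 mGy/h, and XM_032935550.1 and XM_032936352.1 peak at 1 mGy/h on both days.

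Across the dose-rate tests, 17 members (14.5%) were called on day 4, beside 3.84% of all records, and 4 (3.42%) on day 8, beside 7.48%. Of these, XM_032942322.1, XM_032934668.1 and XM_032939931.1 were called on both days (2.56%), beside 0.663% of all records. With the comparison between days included, 19 of the 117 (16.2%) were called, beside 12.1% of all records, which leaves the test of age aside. The comparisons of one day share their 4 controls, so calls at different dose rates are not independent.

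**Figure D5:**
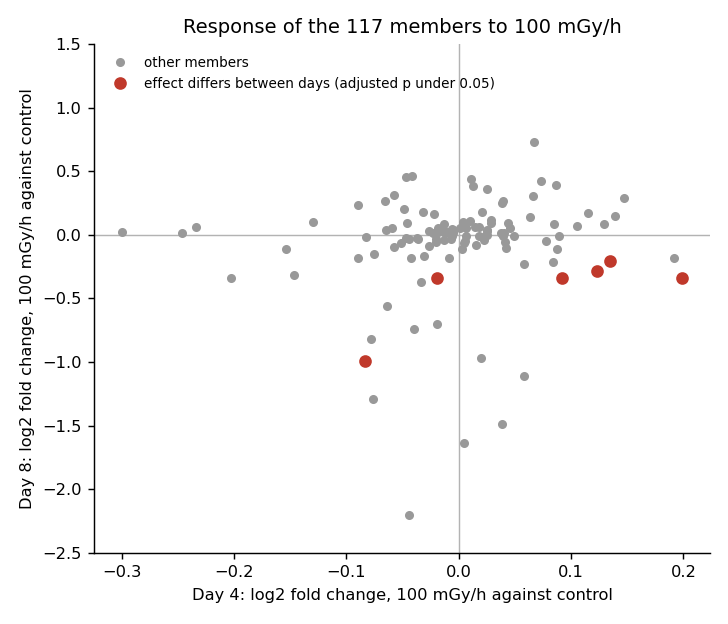
Log2 fold change at 100 mGy/h against the control on day 4 (horizontal axis) and on day 8 (vertical axis) for each of the 117 members, with the 6 whose effect differed between days in red. Day 4 values run from -0.30 to 0.20 and day 8 values from -2.20 to 0.73, and the axes have different scales.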

How the data were processed

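The deposited values were read counts per transcript record, whole numbers without normalization as the authors made them, with the 28 libraries of each day in their own table. Per the labels' protocols, messenger RNA libraries were sequenced with paired 100 bp reads on the BGISEQ-500 platform. HISAT is named in the submitters' processing notes, and its version, the counting program, the handling of shared reads, the strand setting, the genome build and the annotation release are not given in the sources used here. Reads of similar or overlapping genes may therefore be split between records.

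The 14 groups of 4 libraries follow the labels. No libraries of a day were identical, and the chi-square over its degrees of freedom was at least 6.85 for pairs of day 4 and 24.1 for pairs of day 8. Members and the limits of description were chosen with earlier results of these data known.

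Counts were fitted in R 4.3.3 with edgeR 4.0.16 (filterByExpr, TMM factors, glmQLFit and glmQLFTest) on all 28 libraries of a day, on the 16 libraries at 0 and 100 mGy/h for the difference between days, and on the 48 exposed libraries for age. Adjusted p-values are Benjamini-Hochberg over all records tested, 2-sided, called under 0.05. The standard error is the log2 fold change over the root of its F statistic. Levels are CPM on TMM-scaled totals over all 56 libraries. All 117 members passed the filter. Models were tested on simulated counts. Alternatives were other scalings (size factors of DESeq2, totals alone, TMM without the members), no filter, DESeq2 1.42.0, surrogate variables from sva 3.50.0, a replicate block, pairs of groups alone, the smaller class of library totals, dose rate itself in place of its rank, the class of library totals as a term (added after the data were seen), and libraries left out 1 at a time. For a dose rate these were the 8 compared, for the trend and the test of all dose rates the 8 at 0 and 100 mGy/h, and for age each whole dose rate was left out instead. Records named in the text are the 8 most abundant, those called (up to 6 per test), the 3 with the smallest and largest spread, those next to a limit, and the farthest from control at 100 mGy/h. Others named were chosen after their values were seen. Same-numbered libraries did not vary together (median correlation 0.0269 on day 4 and 0.0402 on day 8).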

Additional observations from a re-analysis of the deposited data

Results flagged for a closer look

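A library stood far from the other 3 of its group in 9 of 210 groups of 4, over 15 measures (14 members and the summed share of the 117) in 14 groups each, where chance flags about 1 in 20 groups (10.5 of 210). XM_032939931.1 had 1229.5 CPM in replicate 4 at 0.4 mGy/h on day 4, above others of up to 1117 CPM, and 1229 CPM in replicate 2 at 4 mGy/h, above others of up to 1201 CPM. Also on day 4, XM_032924636.1 had 1334 CPM in replicate 1 and XM_032939958.1 had 1094 CPM in replicate 2 at 1 mGy/h, each above the rest. On day 8, XM_032927707.1 had 1778 CPM in replicate 4 at 0.4 mGy/h, above the rest, and 1322 CPM in replicate 3 at 100 mGy/h, below the rest. XM_032934435.1 had 5529 CPM in replicate 3 at 0.4 mGy/h, where the others had at least 15864 CPM. In replicate 2 at 40 mGy/h XM_032922485.1 had 7.55 CPM, where the others had at least 3820.1 CPM, and XM_032936352.1 had 1662 CPM, above the rest.

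Both days differed in the effect of 100 mGy/h, by an interaction test in edgeR, for 6 members (5.13%), beside 4.39% of all records. The log2 change on day 8 minus that on day 4 was -0.91 for XM_032934435.1, -0.55 for XM_032939987.1, -0.44 for XM_032939931.1, -0.41 for XM_032934668.1, -0.35 for XM_032939958.1 and -0.33 for XM_032924636.1. Over 23 alternatives each, XM_032939987.1 and XM_032939931.1 were called in 23, XM_032924636.1 in 22, XM_032939958.1 in 11, XM_032934668.1 in 10 and XM_032934435.1 in 5. In each of the 6, all libraries at 100 mGy/h on day 8 were below the highest control of that day.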

How the results depend on the processing

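No called change at 100 mGy/h and no called difference between days took the other sign under an alternative, while 90 values of members not called at 100 mGy/h did. The age differences of the controls and the order of the day 4 and day 8 control shares depend on the scale, as given above. Of 1054 values of named members at 100 mGy/h under alternatives, 1019 kept their side of the threshold, 30 lost a call and 5 gained one, and 44 of 138 values of the difference between days lost a call. Counts of members called were small and moved with the setting. The cause was not tested. On day 4 DESeq2 called 7 at 0.4 mGy/h, 7 at 1, 9 at 10, 6 at 40 and 5 at 100 mGy/h, 31 over all dose rates and 2 on the trend (1, 3, 1, 1, 2, 15 and 1 in edgeR). It called 395, 277, 251, 108, 131, 1013 and 100 of all records in the same comparisons (edgeR 15, 63, 38, 27, 71, 330 and 53). On day 8 it called 2 members at 1 mGy/h, 5 at 100 mGy/h and 7 over all dose rates, with 678 of all records at 100 mGy/h (edgeR 256). Its day 8 counts over all records at 1 mGy/h and over all dose rates are not given here. With surrogate variables the day 4 counts were 0 at 0.4, 0 at 10, 0 at 40 and 1 at 100 mGy/h. They called 1, 28, 16 and 65 of all records there. Over all dose rates of day 4 they called 7 members (163 of all records), and on the trend 0 (43 of all records). On day 8 they called 0 at 100 mGy/h (19 of all records) and 11 on the trend (1114 of all records, against 609). On totals alone the counts were 0 at 0.4, 2 at 10 and 2 at 40 mGy/h on day 4 and 4 at 100 mGy/h on day 8; this scaling moved the median log2 change of all records by up to 0.40, in the comparison of days. DESeq2 size factors in edgeR gave 2 at 40 mGy/h on day 4. Without a filter 0 were called at 0.4 mGy/h on day 4 and 3 for the difference between days (6 with it). With only the groups compared, the day 4 counts were 0 at 1, 0 at 10, 0 at 40 and 0 at 100 mGy/h, and day 8 had 1 at 100 mGy/h. In the smaller total class of day 4 the counts were 0 at 0.4, 0 at 40, 0 at 100 mGy/h, 6 over all dose rates and 0 on the trend, with fewer libraries in it. With the class as a term they were 0 at 0.4, 0 at 10 and 0 at 40 mGy/h. Dose rate in place of its rank gave 6 trend calls on day 4, with 159 of all records called (53 with the rank). On day 8 it gave 7, and the count over all records is not given here. Of the same-numbered pairs, 34 of 84 on day 4 and 36 of 84 on day 8 correlated above 0.1. No such count was made for pairs with different numbers. Used as a replicate block, the replicate numbers gave 0 at 40 mGy/h, 1 at 100 mGy/h and 0 on the trend on day 4. The other block counts stayed within 1.5 times.

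Leaving out 1 of the libraries compared at a time (1 of those at 0 and 100 mGy/h for the trend and all dose rates) gave from 0 to 1 calls at 0.4, from 2 to 4 at 1, 0 at 4, from 0 to 2 at 10, from 0 to 3 at 40 and from 1 to 2 at 100 mGy/h on day 4, from 9 to 18 over all dose rates and from 0 to 3 on the trend. On day 8 it gave 0 at 0.4, from 0 to 1 at 1, 0 at 4, 10 and 40, from 0 to 2 at 100 mGy/h, from 0 to 2 over all dose rates and from 2 to 8 on the trend. The difference between days ranged from 3 to 15. In the test of all dose rates of day 4 these fits called 232 to 370 of all records. For the other ranges the counts over all records are not given here. Leaving out a whole dose rate at a time gave from 95 to 102 members in the age comparison. An abundance limit of 500 CPM gave 276 records with a mean share of 38.3%, and one of 2000 CPM gave 34 with 15.7%. An age limit of 0.5 left 58 with 13.5%, and age differences on TMM-scaled CPM gave 116, of which 111 were shared.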
